A study of Saccharomyces cerevisiae with 6 samples.

Results

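Proline, arginine, allantoin and GABA are nitrogen sources that budding yeast turns to when better ones run short, and the genes described here encode the enzymes that break them down. They are PUT1 and PUT2 of proline, CAR1 and CAR2 of arginine, DAL1, DAL2, DAL3 and DAL7 of allantoin, UGA1 of GABA and GDH2 of glutamate. Each was found by its name in the array's probe annotation, and 10 of 10 had a probe set, out of 5449 genes tested. The 3 arrays of a PMR1 deletion strain were compared with 3 arrays of its wild type. PMR1 encodes the calcium and manganese pump of the Golgi.

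Both groups are haploid Saccharomyces cerevisiae cells that grew exponentially in rich liquid YPAD medium to which 5 mM calcium chloride was added. The deletion strain, NGY051, carries pmr1Δ::kann in BY4741, while the labels also give its background as BY4147. The wild type is given as BY4147, MAT a, with ura3Δ0, leu2Δ0, his3Δ0 and met15Δ0, and the labels list no marker deletions for NGY051 itself. URA3 and MET17 (MET15 in the labels) were below the array background described below on all 6 arrays. The other two labelled deletions were not borne out in this way: HIS3 had levels of 11.56 to 11.58 in the deletion strain and 11.54 to 11.58 in the wild type, and LEU2 had 5.18 to 5.41 in the deletion strain and 5.52 to 5.58 in the wild type, all above background. Where the probes of these genes lie relative to the deleted parts was not analysed here. The labels do not say whether NGY051 is a single clone, nor whether the replicates were separate cultures. The p-values therefore rest on the spread within each set of 3 arrays, part or all of which may be technical.

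The end product of these routes is glutamate or ammonia, from which the cell makes its other nitrogen compounds. On good nitrogen sources, as in rich medium, yeast holds most of these genes at a low level, a regime known as nitrogen catabolite repression. It works through GATA transcription factors: Gln3 and Gat1 activate, Dal80 and Gzf3 repress, and Ure2 keeps Gln3 out of the nucleus. Most branches have an activator of their own as well, such as Put3 for proline and Uga3 for GABA. How far nitrogen catabolite repression held in the cultures measured here was not tested.

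Values are RMA expression levels on the log2 scale, on which 1 unit is a doubling. A change is the mean of the deletion arrays minus the mean of the wild-type arrays, and levels of different probe sets are not compared. PMR1 itself had levels of 2.79, 3.45 and 3.16 on the deletion arrays, against 11.81, 11.79 and 11.84 on the wild-type arrays. In the deletion it was below the array background of 4.18 to 4.31, the 95th percentile of the probe sets for Schizosaccharomyces pombe, so it was at least 187-fold lower. All 10 catabolic genes were above this background on all 6 arrays, as were 5386 of the 5498 probe sets tested. Pearson's r across the tested probe sets, which are not independent, was 0.997 to 0.999 within groups and 0.988 to 0.990 between them. For markers of mating type, levels were taken off the log2 scale, summed within each array and put back on it. Such a sum rests mostly on the brightest probe sets. The 6 a-specific genes had a summed level of 14.6 to 14.7 in the deletion and 15.0 to 15.1 in the wild type. The 4 alpha-specific genes had 9.73 to 9.84 in the deletion and 9.46 to 9.59 in the wild type. The alpha-factor gene MF(ALPHA)1 was below background on every array. The other 3 alpha-specific genes, STE3, MF(ALPHA)2 and SAG1, were above it on all 6 arrays, with SAG1 at 8.83 to 9.15. In the deletion, 4 of the 6 a-specific genes were lower and 1 higher, and 3 of the 4 alpha-specific ones were higher, by the test given below. By this test 17.5% of all probe sets were higher and 11.7% lower. The changes were -0.66 to 0.22 for the a-specific genes and 0.05 to 0.55 for the alpha-specific ones. Of the alpha-specific rises, those of SAG1 (0.19) and MF(ALPHA)2 (0.12) were small beside that of STE3 (0.55). The part of these shifts in the results below was not tested.

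Of the 10 catabolic genes, 8 were higher in the deletion, 0 were lower, and DAL7 and UGA1 did not pass the test (limma, Benjamini-Hochberg adjusted p under 0.05 over all 5498 probe sets). Over all probe sets, 17.5% were higher and 11.7% lower. The median change was 0.33 for the 10 genes and 0.01 for all probe sets. For the same 8 genes every deletion value lay above every wild-type value, which held for 27.4% of all probe sets (19.3% were separate the other way). Since the genes were chosen with earlier results of these data known, these shares are a description. The background itself moved with single arrays: 599 probe sets were higher without deletion replicate 1 and 633 without wild-type replicate 1, against 963 with all arrays, and 373 and 398 were lower without deletion replicates 1 and 3, against 642. In whole cultures, a change in how many cells express a gene and a change in RNA per cell cannot be told apart.

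**Figure D1:**
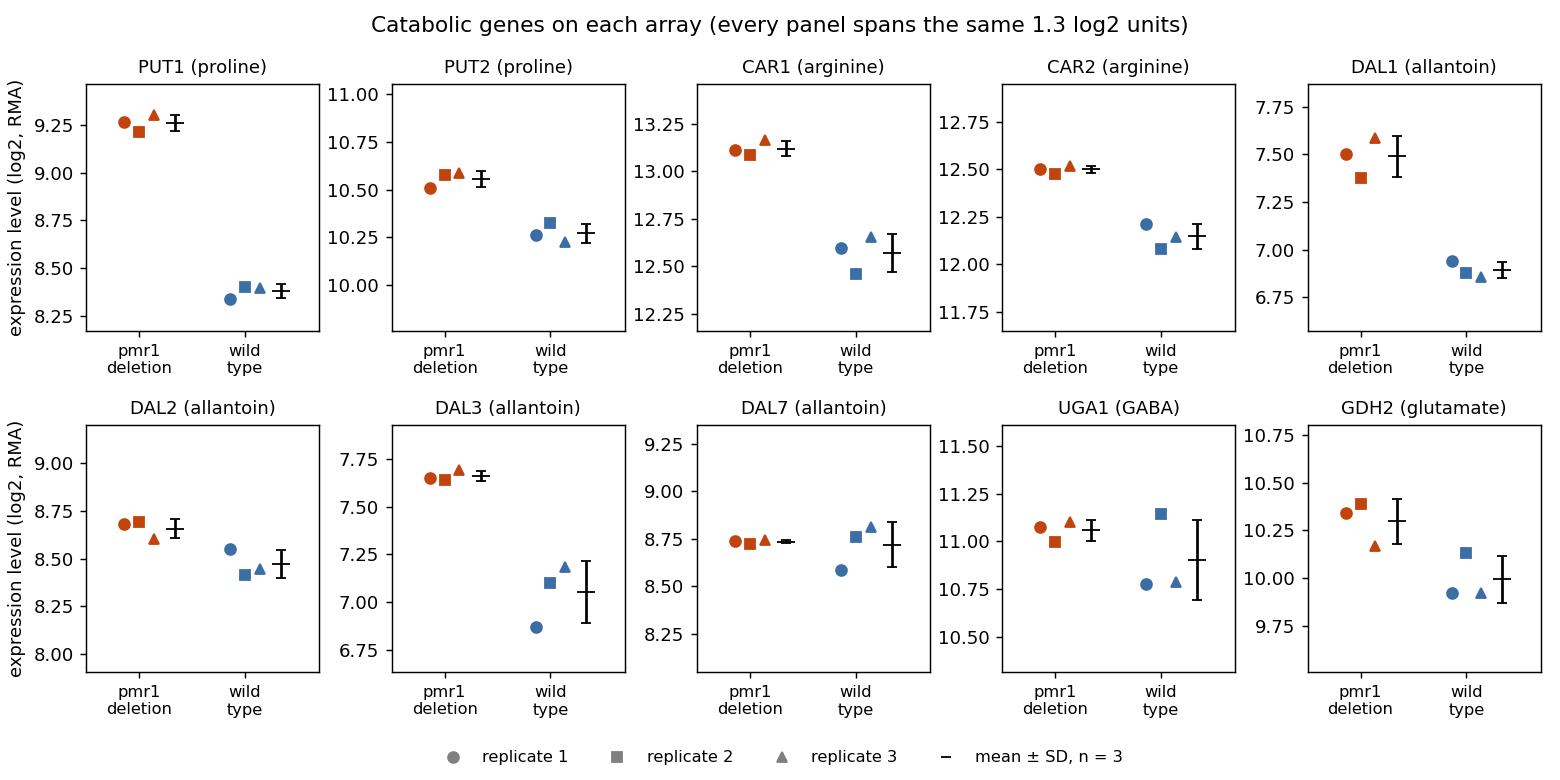
Expression level (log2, RMA) of the 10 catabolic genes on each array, with the pmr1 deletion on the left and the wild type on the right of each panel; symbols mark replicates and black bars the mean ± SD (n = 3). The groups are separate for every gene except DAL7 and UGA1, and the widest separation is that of PUT1, with deletion levels of 9.22 to 9.30 and wild-type levels of 8.33 to 8.40.

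The first enzyme of proline breakdown showed the largest change of the 10 genes. Proline oxidase, encoded by PUT1 (YLR142W), starts the mitochondrial conversion of proline to glutamate. PUT1 had levels of 9.27, 9.22 and 9.30 in the deletion, against 8.33, 8.40 and 8.40 in the wild type. The lowest deletion array lay 0.81 above the highest wild-type array, while neither group spanned more than 0.09. The change was 0.88 (SE 0.039, adjusted p = 3.39e-05), or 1.85-fold with a 95% interval of 1.73 to 1.97, the 35th largest rise among the 5498 probe sets.

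PUT2 (YHR037W) encodes the dehydrogenase that completes the route to glutamate. Its levels were 10.51, 10.58 and 10.59 in the deletion, against 10.26, 10.32 and 10.23 in the wild type. The groups were separate by 0.18, and the change was 0.29 (SE 0.041, adjusted p = 0.00304). The change of PUT1 was 0.60 larger than that of PUT2. The SD of the within-array difference of these 2 genes was 0.061 in the deletion and 0.054 in the wild type, and an exact permutation test gave p = 0.1, which is as low as 3 against 3 arrays can go (0.14 after Benjamini-Hochberg adjustment over 7 gene pairs). No pair could therefore pass a threshold of 0.05.

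Both enzymes of arginine breakdown were higher. Arginase, which CAR1 (YPL111W) encodes, splits arginine into ornithine and urea. CAR1 had levels of 13.11, 13.08 and 13.16 in the deletion, against 12.60, 12.46 and 12.65 in the wild type, with no overlap between the groups. Its change was 0.55 (SE 0.056, adjusted p = 0.000725), which is 1.46-fold with an interval of 1.33 to 1.60. The wild-type arrays spread over 0.19 and the deletion arrays over 0.08.

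CAR2 (YLR438W) encodes ornithine aminotransferase, the next step. On the deletion arrays it was at 12.50, 12.48 and 12.52, against 12.21, 12.08 and 12.15 on the wild-type arrays. These groups were also separate, and the change was 0.35 (SE 0.042, adjusted p = 0.0015). The change of CAR1 was 0.20 larger than that of CAR2, with an SD of the within-array difference of 0.022 in the deletion and 0.073 in the wild type (exact permutation p = 0.1, adjusted 0.14). Wild-type replicate 2 was the lowest of the wild-type arrays for both genes, and without it the changes were 0.49 for CAR1 and 0.32 for CAR2.

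Of the 4 allantoin enzymes, 3 were higher. Allantoinase, the product of DAL1 (YIR027C), opens the ring of allantoin. DAL1 had levels of 7.50, 7.38 and 7.59 in the deletion, against 6.94, 6.88 and 6.86 in the wild type, and the lowest deletion value was 0.44 above the highest wild-type value. The change was 0.60 (SE 0.058, adjusted p = 0.000602), or 1.51-fold.

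Allantoicase, encoded by DAL2 (YIR029W), acts on the allantoate that results. Its levels were 8.68, 8.69 and 8.60 in the deletion, against 8.55, 8.41 and 8.44 in the wild type. The groups came within 0.05 of each other, and the change was 0.19 (SE 0.049, adjusted p = 0.0282). This call ended in 7 of the 16 alternative settings, among them leaving out deletion replicate 1 or 2 or wild-type replicate 2 or 3, where the adjusted p reached 0.0939. The change of DAL1 was 0.41 larger than that of DAL2 (exact permutation p = 0.1, adjusted 0.14).

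DAL3 (YIR032C) encodes ureidoglycolate lyase, which releases urea and glyoxylate. It stood at 7.65, 7.64 and 7.69 in the deletion, against 6.87, 7.10 and 7.18 in the wild type. The deletion arrays lay within 0.05 of each other, and the wild-type arrays spread over 0.31, with replicate 1 the lowest. The change was 0.61 (SE 0.078, adjusted p = 0.00187), the largest among the allantoin genes, and it was 0.52 without wild-type replicate 1. The change of DAL2 minus that of DAL3 was -0.42 (exact permutation p = 0.1, adjusted 0.14).

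Malate synthase, the product of DAL7 (YIR031C), joins the glyoxylate to acetyl-CoA. DAL7 had levels of 8.74, 8.72 and 8.74 in the deletion, against 8.59, 8.76 and 8.81 in the wild type. The wild-type values lay on both sides of the deletion values, and the change was 0.02 (SE 0.06, adjusted p = 0.87), with a 95% interval of -0.13 to 0.16. MLS1, a second gene for malate synthase, was at 5.84, 5.74 and 5.61 in the deletion, against 6.02, 6.25 and 6.14 in the wild type, and fell by 0.41 (SE 0.078, adjusted p = 0.00863). The changes of DAL7 and MLS1 differed by 0.43 (exact permutation p = 0.1, adjusted 0.14). Both probe sets carry IDs of the plain kind, not of the kind that can bind several transcripts.

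In the R64 gene table, DAL1, DAL4, DAL2, DCG1, DAL7 and DAL3 adjoin in this order. DAL4 encodes the allantoin permease, and DCG1 is a gene of this cluster for which no enzymatic role is given here. DAL4 rose by 0.42 (SE 0.046, adjusted p = 0.000888), with levels of 7.06, 7.16 and 7.04 in the deletion, against 6.69, 6.62 and 6.69 in the wild type. DCG1 had a change of 0.08 (adjusted p = 0.253) and groups that overlapped. It was 0.04 without deletion replicate 1, 0.12 without deletion replicate 2, and 0.12 with array weights, where it passed (adjusted p = 0.0293). Along the cluster, the changes were thus 0.60, 0.42 and 0.19 for DAL1, DAL4 and DAL2, then 0.08 and 0.02 for DCG1 and DAL7, and 0.61 for DAL3 at the far end. Of the 3 genes on either side, 5 were measured, with changes of -0.01 to 0.21. Of these, 2 were higher, beside 17.5% of all probe sets. They were MND2, with a change of 0.21 (adjusted p = 0.0164), and LYS1, with 0.18 (adjusted p = 0.0318), near the 0.19 of DAL2. The neighbours were added after the values were seen.

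**Figure D2:**
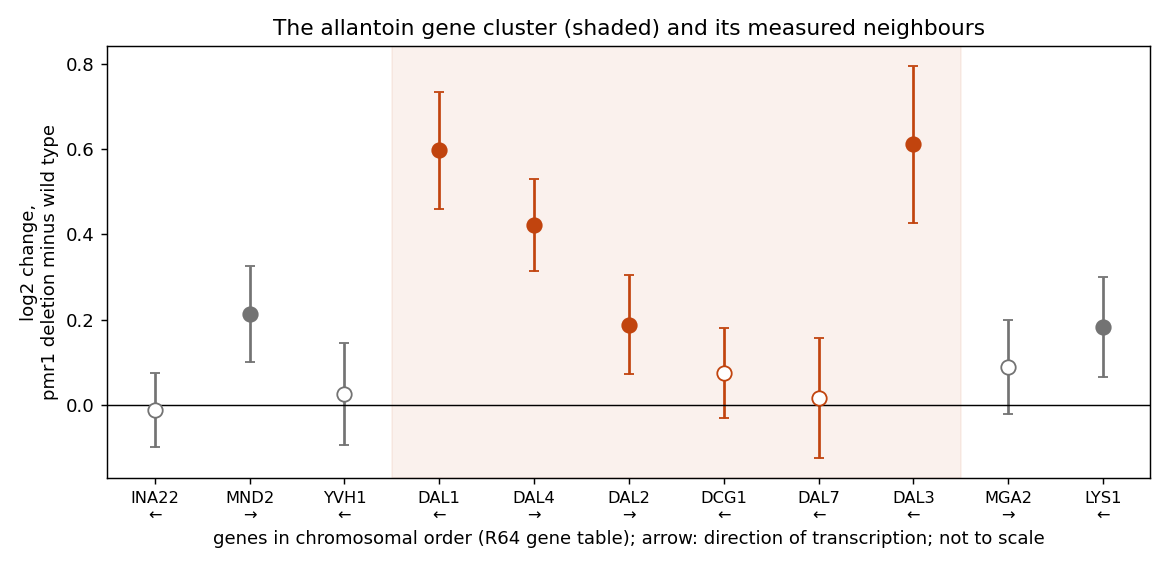
Log2 change, pmr1 deletion minus wild type, of the 6 genes of the allantoin cluster (shaded) and 5 measured neighbours in chromosomal order, with 95% intervals of the limma fit; filled points have an adjusted p under 0.05. DAL1 and DAL3 at the ends of the cluster changed by 0.60 and 0.61, and DCG1 and DAL7 between them by 0.08 and 0.02.

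GABA transaminase, encoded by UGA1 (YGR019W), passes the amino group of GABA to make glutamate. UGA1 had levels of 11.07, 11.00 and 11.10 in the deletion, against 10.78, 11.15 and 10.79 in the wild type. One wild-type array, replicate 2, lay above all deletion arrays, and the other two lay below them. With all arrays the change was 0.15 (SE 0.099, adjusted p = 0.288), with an interval of -0.08 to 0.39. Without wild-type replicate 2 it was 0.27 (adjusted p = 0.00589), and with array weights on all 6 arrays it was 0.25 (adjusted p = 0.0164). Without wild-type replicates 1 and 3 in turn it was 0.09 and 0.10, so the call and the size of the change depended on the array left out and on the weighting. Wild-type replicate 2 was also the highest wild-type array for PUT1, PUT2 and GDH2. That makes 4 of the 10 genes, near the share over all probe sets, 2403 of 5498.

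GDH2 (YDL215C) encodes the glutamate dehydrogenase that uses NAD and frees ammonia from glutamate. Its levels were 10.34, 10.39 and 10.17 in the deletion, against 9.92, 10.13 and 9.92 in the wild type. The lowest deletion array was only 0.03 above the highest wild-type array. The change was 0.31 (SE 0.08, adjusted p = 0.0289), or 1.24-fold. Its call ended in 5 of the 16 alternatives, 4 of which left out deletion replicate 1 or 2 or wild-type replicate 1 or 3 (adjusted p up to 0.092), and without wild-type replicate 2 the change was 0.38 (adjusted p = 0.0108).

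The changes of PUT1, PUT2, CAR1, CAR2, DAL1 and DAL3 passed the threshold in all 16 alternative settings. Over these settings the number of catabolic genes that were higher was 6 to 9, and 0 were lower. The settings that differ only in the choice of probe sets left the change of every catabolic gene as it was. They altered only the adjusted p, so they are no check on the size of the changes. The median SD between replicates of the 10 genes was 0.043 in the deletion and 0.087 in the wild type, and over all probe sets the medians were 0.052 and 0.056.

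**Figure D3:**
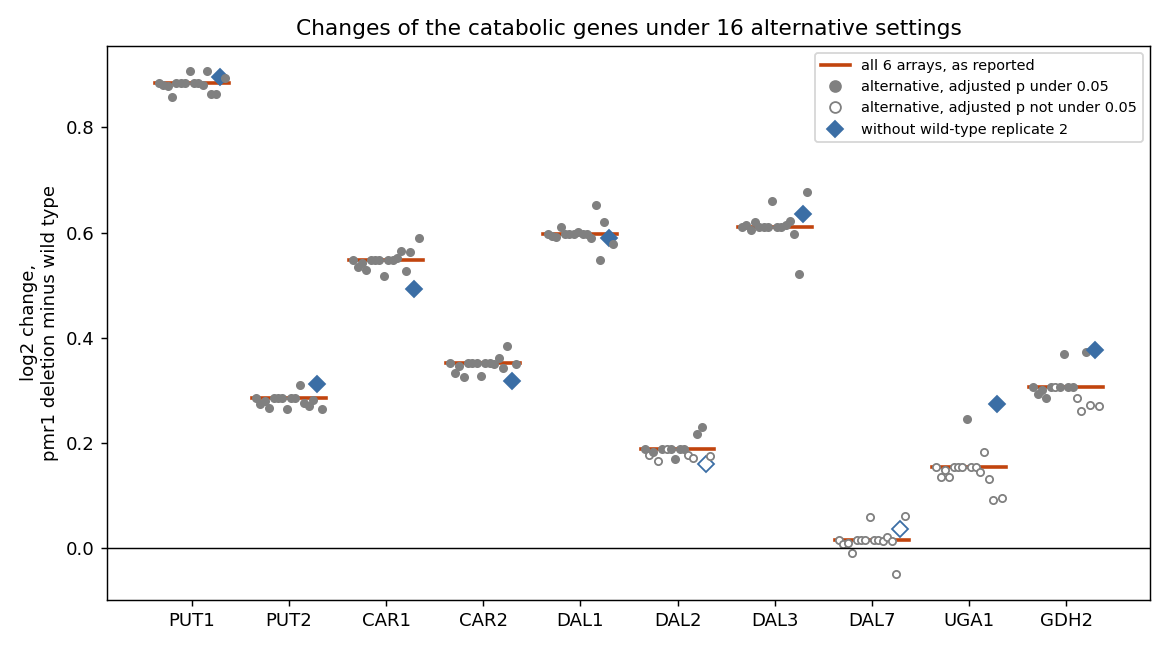
Log2 change, pmr1 deletion minus wild type, of each catabolic gene with all arrays (red line) and under 16 alternative settings (points, filled where the adjusted p is under 0.05; blue diamonds leave out wild-type replicate 2). PUT1 stays between 0.86 and 0.91, and UGA1 ranges from 0.09 to 0.27.

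Most permeases that bring these compounds into the cell were higher. Of 8 measured, 5 were higher and 1 lower, with a median change of 0.20, beside 17.5% higher and 11.7% lower of all probe sets. The share lower, 12.5%, was thus near that of all probe sets. The urea permease DUR3 rose by 0.50 (SE 0.056, adjusted p = 0.00107), with levels of 8.78, 8.95 and 8.79 in the deletion, against 8.34, 8.39 and 8.29 in the wild type. GAP1, the general amino acid permease, rose by 1.10 (adjusted p = 7.33e-05). The arginine permease CAN1 and the GABA permease UGA4 rose by 0.19 (adjusted p = 0.0253) and 0.21 (adjusted p = 0.0239), and each call ended in 5 of the 16 alternatives. Without 1 array, that of CAN1 ended without deletion replicate 2 or 3 or wild-type replicate 3, and that of UGA4 without deletion replicate 1 or 2 or wild-type replicate 1 or 3.

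The proline and allantoate permeases and ALP1 were not higher. ALP1, a basic amino acid permease, had a change of -0.03 (adjusted p = 0.888) and groups that overlapped. PUT4, the proline permease, had levels of 5.36, 5.69 and 5.68 in the deletion, against 5.85, 5.85 and 5.78 in the wild type. All deletion arrays were below all wild-type arrays, and the change of -0.25 (SE 0.089, interval -0.46 to -0.04) did not pass the threshold over all probe sets (adjusted p = 0.076). It was -0.14 without deletion replicate 1, the lowest array, -0.16 with quantile scaling, and -0.40 with array weights, where it passed (adjusted p = 0.0119). DAL5, the allantoate permease, was at 8.38, 8.38 and 8.34 in the deletion, against 8.47, 8.53 and 8.49 in the wild type. It was lower by a small margin, with a change of -0.13 (SE 0.034, adjusted p = 0.0289), and this call ended without any 1 of the 6 arrays.

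The list of 11 measured enzymes of the same or adjoining steps includes DCG1, for which no enzymatic role is given here. Of the 11, 3 were higher and 2 lower, with a median change of 0.08, which is that of DCG1. These counts lie near the shares of all probe sets, 17.5% higher and 11.7% lower. The higher ones were GDH1, GLN1 and PRO2, an enzyme of proline synthesis with a rise of 0.12 (adjusted p = 0.0312) whose call ended in 7 of the 16 alternatives, in 5 of them without 1 array. The lower ones were MLS1 and GLT1. Urea amidolyase, encoded by DUR1,2, was not analysed here. In the GABA branch, UGA2, the succinate semialdehyde dehydrogenase that follows Uga1, had a change of 0.03 (adjusted p = 0.743), and GAD1, the glutamate decarboxylase that makes GABA, had one of 0.15 (adjusted p = 0.284). That of GAD1 was 0.07 without deletion replicate 3, 0.24 without wild-type replicate 2 and 0.09 without wild-type replicate 3, and passed in none of these. The changes of UGA1 and UGA2 differed by 0.12, and the groups overlapped (exact permutation p = 0.2, adjusted 0.233). PRO3, the reductase that turns the product of Car2 into proline, had a change of 0.10 with groups that did not overlap (adjusted p = 0.0663). It passed with an intensity trend and robust priors (adjusted p = 0.0188) and with array weights (adjusted p = 0.0145), and was 0.07 with quantile scaling.

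Enzymes that build glutamate and glutamine were among those that changed. GDH1, the glutamate dehydrogenase of ammonia assimilation, had levels of 13.91, 13.93 and 13.96 in the deletion, against 13.60, 13.59 and 13.56 in the wild type, a rise of 0.35 (SE 0.033, adjusted p = 0.000463). GDH3, a second gene for the biosynthetic glutamate dehydrogenase, had a change of -0.48, with all deletion arrays below all wild-type arrays. With all arrays it did not pass (adjusted p = 0.055), and it passed in 7 of the 16 alternatives. Glutamine synthetase, GLN1, rose by 0.32 (SE 0.036, adjusted p = 0.00107). GLT1, the glutamate synthase, was lower by a small margin, with a change of -0.14 (SE 0.033, adjusted p = 0.0177), and this call ended without deletion replicate 1 or wild-type replicate 1 or 3. The changes of GDH2 and GDH1, which run the dehydrogenase reaction in opposite directions, differed by -0.05 (exact permutation p = 0.7, adjusted 0.7), with SDs of the within-array difference of 0.14 in the deletion and 0.12 in the wild type.

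Of the 14 regulators, 2 were higher and 0 lower, with a median change of 0.04, and 14.3% higher is near the 17.5% of all probe sets. The GATA activator GAT1 rose by 0.50 (SE 0.05, adjusted p = 0.000676), with levels of 10.38, 10.44 and 10.44 in the deletion, against 9.92, 10.01 and 9.84 in the wild type. The GATA repressor GZF3 rose by 0.14 (adjusted p = 0.0455), a call that ended in 11 of the 16 alternatives, including without any 1 of the 6 arrays. GLN3 had a change of 0.14 and groups that did not overlap, short of the threshold (adjusted p = 0.0562), which it passed in 4 of the 16 alternatives, among them without deletion replicate 3 (adjusted p = 0.0455). DAL80, also a GATA repressor, had levels of 4.74, 4.78 and 4.61 in the deletion, against 4.80, 5.21 and 4.90 in the wild type. These lay close above the array background of 4.18 to 4.31, and the DAL80 change of -0.26 did not pass (adjusted p = 0.109). Without wild-type replicate 2 the change was -0.14, with array weights -0.16, and with quantile scaling -0.05.

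The transcripts of 7 further regulators, each taken here as serving 1 branch, did not pass the test. Whether they act beyond that branch was not tested. PUT3, the activator of PUT1 and PUT2, had a change of -0.07 (interval -0.19 to 0.05). For the arginine regulators ARG80 and ARG81, the changes were 0.06 and 0.04, and for UME6, a repressor of CAR1, the change was -0.08 (interval -0.17 to 0.01). DAL81 and DAL82, activators of the allantoin genes, had changes of 0.04 and 0.08, and UGA3 had one of 0.03. The adjusted p over these 7 genes was at least 0.174, and among the alternatives 1 passed the threshold for 1 of them, UME6 with array weights (adjusted p = 0.0362).

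Taking the 33 measured partner genes as one list, 10 were higher and 3 lower, with a median change of 0.06, which is 30.3% and 9.09% beside 17.5% and 11.7% of all probe sets. Of the 10 catabolic genes, 8 were higher and 0 lower, with a median of 0.33. The partner counts depended on single arrays: 6 were higher without deletion replicate 2 or wild-type replicate 3, and 1 was lower without deletion replicate 1 or wild-type replicate 3. Of the partner calls, 7 held in all 16 alternatives, namely those of GAP1, DAL4, DUR3, GDH1, GLN1, GAT1 and MLS1.

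**Figure D4:**
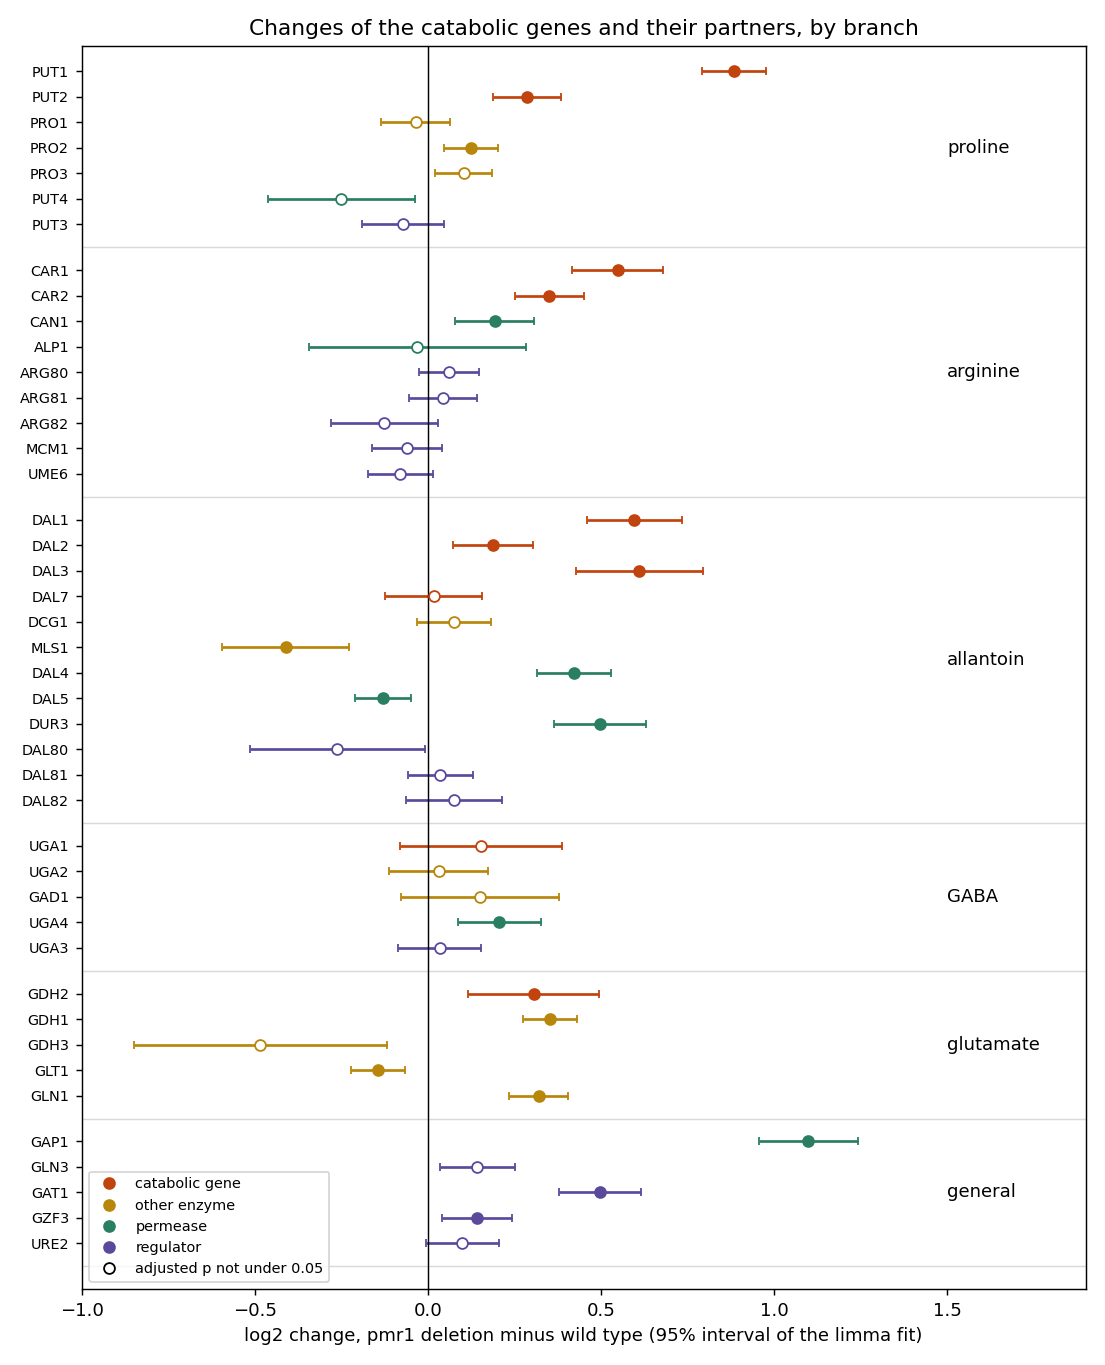
Log2 change, pmr1 deletion minus wild type, with 95% intervals of the limma fit, for the 10 catabolic genes (red) and 33 partner genes grouped by branch; open points have an adjusted p of 0.05 or more. In the proline branch PUT1 is at 0.88, while its permease PUT4 is at -0.25 and its activator PUT3 at -0.07.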

How the data were processed

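The authors deposited log2 values of 10928 probe sets on 6 Affymetrix arrays, made with GCOS, RMA and limma per the submitters' processing notes, with no versions given. RMA gives all arrays like distributions, and it understates folds that are large or of dim genes. Per the labels' protocols, 100 ng of total RNA was amplified and labelled with biotin. The array's genome build and scan batches are not given in the sources used here.

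Probe sets were named through the platform annotation and the R64 gene table. The 5498 for S. cerevisiae were tested with limma 3.58.1 (R 4.3.3, lmFit and eBayes, 2 groups, two-sided). The code was run on simulated data with independent normal noise for each probe set, as the model assumes. That run cannot show how the test fares with deviations shared across an array. Each catabolic gene had 1 probe set; for others the one with the highest mean was used. Gene pairs were tested by exact permutation over arrays.

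Genes, lists, alternatives and the array background were chosen with earlier results of these data known. Named were all 10 catabolic genes, partners taken here as serving 1 branch, and others past the threshold. ALP1, GLN3 and GDH3 fall outside this rule and were named after their values were seen. Arrays give no depth, and their number limits the precision. Sequences were not used here. Figures used matplotlib 3.10.9 in Python 3.11.15.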

Additional observations from a re-analysis of the deposited data

How the results depend on the processing

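The 16 alternatives were 4 changes of test or scaling (intensity trend with robust priors, quantile, median and cyclic loess scaling), array weights, a replicate block, 4 choices of probe sets and leaving out each of the 6 arrays. The 4 choices of probe sets left the changes of the catabolic and partner genes as they were. For these genes they altered only the adjusted p. The number of higher catabolic genes was 6 to 9 under the 16 alternatives, and 6 to 8 when arrays were left out. When every probe set of the array was tested, 6 partner genes were higher and 1 lower, and 548 of all probe sets were higher and 325 lower; with array weights, 6 partners and 1087 of all probe sets were lower. Leaving out single arrays gave 6 to 9 higher and 1 to 3 lower partners, and 599 to 1041 higher and 373 to 629 lower probe sets overall. The changes of DAL7 and MLS1 differed by 0.31 with quantile scaling. Directions turned for 4 of 43 genes, none past the threshold: DAL7 was at -0.0091 with cyclic loess and at -0.050 to 0.062 without single arrays, ALP1 at 0.061, 0.021 and 0.12 with quantile scaling, cyclic loess and array weights and at -0.14 to 0.13 without single arrays, UGA2 at -0.00015 with array weights and at -0.011 to 0.079 without single arrays, and UGA3 at -0.0027 to 0.077 without single arrays. The cause was not tested. Deviations from the group means correlated at -0.138, 0.00 and 0.08 for same-numbered arrays, and at -0.137 to 0.146 for differently numbered ones. Deviations from a mean of 3 arrays are not independent, so these values cannot tell whether the replicate numbers pair the arrays. With the replicate block, 8 catabolic genes were higher and 0 lower, as without it, and 8 partners were higher and 2 lower.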

Other observations

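Wild-type replicate 2 stood above the mean of the other two wild-type arrays for some of the genes described, most of all for GDH3, a second gene for the biosynthetic glutamate dehydrogenase, with an excess of 0.58 on the log2 scale. The excess was 0.49 for ALP1, 0.36 for UGA1 and for DAL80, 0.26 for GAD1, 0.21 for GDH2 and 0.17 for MLS1. At the other end the array lay below the others for CAR1 (-0.17), GAP1 (-0.12) and GZF3 (-0.11), and GLT1 was at -0.04. Over all tested probe sets the median excess was 0.01. These genes were picked after their values were seen, and no theme among them was tested. GDH3 had levels of 8.23, 8.26 and 8.21 in the deletion, against 8.45, 9.11 and 8.61 in the wild type. Its change was -0.48 (adjusted p = 0.055) with all arrays and -0.29 (adjusted p = 0.0118) without wild-type replicate 2, a smaller change that passed the threshold; it passed in 7 of the 16 alternatives. GDH3 was looked at after its values were seen.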
